A study of Mus musculus with 12 samples.

Results

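Chemokine receptor mRNA was measured in the skin of WT and Thy-1–KO mice given bleomycin or PBS. The 9 receptors described here (Ccr1, Ccr2, Ccr6, Ccr7, Cxcr2, Cxcr3, Cxcr4, Cxcr6 and Cx3cr1) were taken by symbol from a table of 55453 genes, as receptors that guide leukocytes. Bulk RNA-Seq was done on skin of 12 mice of the C57/BL6 strain, 3 in each of 4 groups, all harvested on day 21. WT PBS mice (159, 160 and 161) and WT BLM mice (145, 146 and 147) were wild type and received PBS or bleomycin, a drug that causes fibrosis where it is injected under the skin. KO PBS mice (136, 137 and 139) and KO BLM mice (141, 143 and 144) carried a knockout of Thy-1, a surface glycoprotein of fibroblasts, T cells and neurons, throughout the body, and were female and 8 to 12 weeks old according to the methods. The methods name WT mice both as bought C57BL/6J animals and, for all controls, as littermates, so whether WT and KO mice shared litters is not known. The daily dose of bleomycin was 10 mg/kg, injected for at most 14 days in the methods and for 21 days in the deposited description. Mice were separate animals, and no group had more than 3, which limits every comparison here.

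Chemokine receptors are G protein–coupled receptors that leukocytes use to follow gradients of secreted chemokines out of the blood and through tissue. CCR2 draws monocytes to CCL2 and its relatives, CXCR2 draws neutrophils to the CXCL1 and CXCL2 family, and CX3CR1 marks patrolling monocytes and tissue macrophages. CCR7 leads dendritic cells and naive T cells to lymphatics and lymph nodes, CCR6, CXCR3 and CXCR6 are found on T cell subsets of the skin, and CXCR4 with its ligand CXCL12 is used by leukocytes and by many cells of the tissue itself.

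Reads counted on genes summed to between 26473700 and 38890450 (median 31494965). Levels are given as CPM, the count of a gene divided by the TMM-normalized total of its library and scaled to 1000000. Keratinocyte and fibroblast marker genes were high in every library (summed CPM of 8660 to 43900 and 5450 to 34400). Hair follicle genes, by contrast, split the libraries, along with treatment in WT mice but not in KO mice. The mean log2 CPM of 25 genes of the growing hair follicle lay between 9.48 and 9.97 in WT PBS mice and between 0.103 and 3.51 in WT BLM mice. KO PBS mouse 136 was at 9.95, next to the WT PBS mice, while the other KO PBS mice were at -0.304 and 2.07, and KO BLM mouse 141 was at 8.95 against 5.18 and 6.19 in the other KO BLM mice. Results are therefore also given without mice 136 and 141. Thy1 itself was counted in every mouse, at 104 to 150 CPM in WT PBS, 231 to 416 in WT BLM, 45.6 to 96.9 in KO PBS and 84.7 to 128 in KO BLM mice. Within each treatment the KO mice were below the WT mice, and a count per gene cannot show which exons the remaining reads came from.

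Expression of the receptors differed widely. Per kb of exon, the mean level over the 12 mice was highest for Ccr2 (8.63 CPM per kb) and Cxcr4 (8.43), followed by Cxcr6 (3.13), Cx3cr1 (2.17), Ccr1 (2.05), Cxcr2 (1.59), Cxcr3 (1.3), Ccr7 (1.08) and Ccr6 (0.334). The ranges over mice of neighbours in this order overlapped in each case, for example 1.79 to 24.5 CPM per kb for Ccr2 and 4.49 to 12.7 for Cxcr4. The leading receptor changed with the group. Cxcr4 was the most abundant of the 9 per kb in all 3 WT PBS mice, where it made up 41.2% to 51.7% of their summed level, and Ccr2 was second. In all 3 WT BLM mice Ccr2 was the most abundant, with 29.5% to 48.1% of the sum, and Cxcr4 made up 19.2% to 23.2%. Cxcr4 led again in all 3 KO BLM mice (29.0% to 34.0%), although Ccr2 was close behind it in mouse 141 (32.6%). Among KO PBS mice, Ccr2 led in mouse 137 and Cxcr4 in the other 2. The summed level of the 9 receptors was 10.1 to 13.6 CPM per kb in WT PBS, 36.9 to 55.3 in WT BLM, 12.7 to 23.3 in KO PBS and 27.8 to 43.2 in KO BLM mice, with mouse 136 the lowest KO PBS mouse and mouse 141 the lowest KO BLM mouse.

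**Figure D1:**
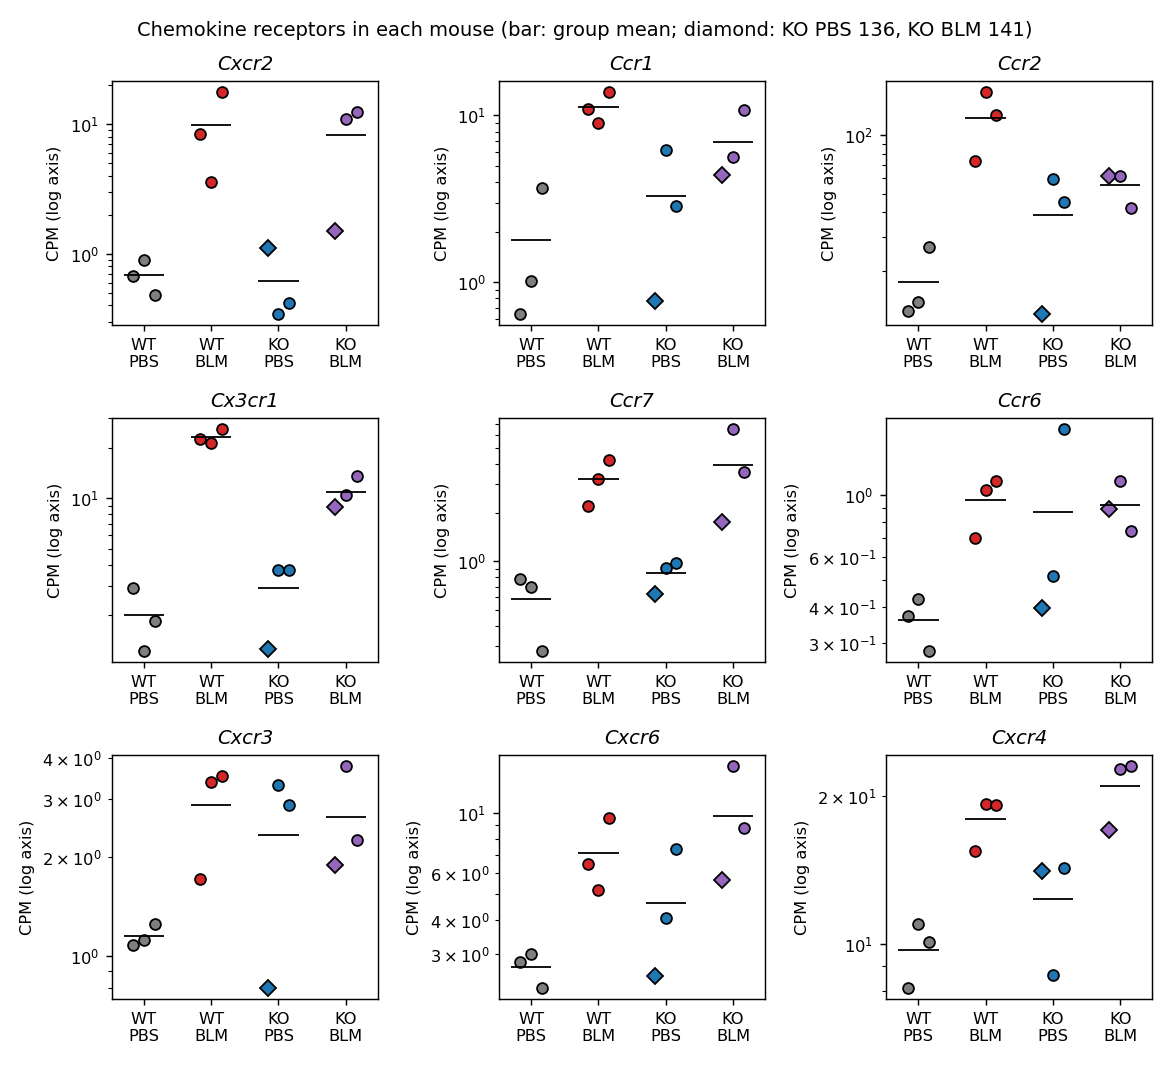
CPM of each of the 9 receptors (vertical log axis, scaled separately in each panel) in each mouse, by group; bars are group means and diamonds are KO PBS mouse 136 and KO BLM mouse 141. In every panel the 3 WT BLM mice sit above the 3 WT PBS mice, while KO BLM and KO PBS mice are apart only for Ccr7, Cxcr2, Cxcr4 and Cx3cr1.

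In the GRCm38 assembly (GENCODE M21), Ccr1 (chr9:123962124-123968692, minus strand), Ccr2 (chr9:124101950-124113557, plus strand), Cxcr6 (chr9:123806475-123811760, plus strand) and Cx3cr1 (chr9:119901616-120069879, minus strand) share chromosome 9 with Thy1, from which they are 75.9 to 80.1 Mb away. Cxcr2 (chr1:74153989-74161246, plus strand) and Cxcr4 (chr1:128588199-128592293, minus strand) are on chromosome 1, Ccr6 (chr17:8236043-8257141, plus strand) on chromosome 17, Ccr7 (chr11:99144196-99155077, minus strand) on chromosome 11 and Cxcr3 (chrX:101731535-101734269, minus strand) on chromosome X. Cxcr6 lies within Fyco1 on the opposite strand without shared exon bases. Exons of Cx3cr1 share 78 bases with the antisense gene Gm33858, and whether strand was used in counting is not given in the sources used here, so reads in those bases cannot be assigned to 1 gene.

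Promoters are shown for Cxcr2, Cx3cr1, Ccr2 and Ccr1, the receptors with the largest rises after bleomycin in WT mice, to set genes that moved together side by side. Each run is 300 bases around the RefSeq transcription start in GRCm38.p6, read 5′ to 3′ on the strand of the gene; capitals mark GAGGAA or its reverse complement TTCCTC, the core bound by PU.1 and other ETS factors of myeloid cells.
Cxcr2, chr1:74153744-74154043, plus strand: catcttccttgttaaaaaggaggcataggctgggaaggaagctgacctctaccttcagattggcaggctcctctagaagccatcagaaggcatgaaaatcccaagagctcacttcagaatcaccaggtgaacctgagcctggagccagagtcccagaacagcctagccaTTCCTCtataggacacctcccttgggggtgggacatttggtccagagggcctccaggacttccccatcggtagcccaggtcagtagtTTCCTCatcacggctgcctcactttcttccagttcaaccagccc
Cx3cr1, chr9:120068247-120068546, minus strand: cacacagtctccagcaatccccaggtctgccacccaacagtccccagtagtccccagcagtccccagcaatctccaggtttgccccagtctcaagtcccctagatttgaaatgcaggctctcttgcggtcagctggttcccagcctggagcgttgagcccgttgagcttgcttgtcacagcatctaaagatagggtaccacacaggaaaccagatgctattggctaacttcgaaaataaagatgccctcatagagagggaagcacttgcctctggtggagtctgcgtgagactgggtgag
Ccr2, chr9:124101933-124102232, plus strand: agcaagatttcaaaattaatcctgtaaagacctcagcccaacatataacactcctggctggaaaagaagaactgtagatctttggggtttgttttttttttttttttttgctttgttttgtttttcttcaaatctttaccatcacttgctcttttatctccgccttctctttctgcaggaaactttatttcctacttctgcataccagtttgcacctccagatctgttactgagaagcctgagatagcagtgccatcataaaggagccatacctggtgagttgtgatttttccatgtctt
Ccr1, chr9:123968643-123968942, minus strand: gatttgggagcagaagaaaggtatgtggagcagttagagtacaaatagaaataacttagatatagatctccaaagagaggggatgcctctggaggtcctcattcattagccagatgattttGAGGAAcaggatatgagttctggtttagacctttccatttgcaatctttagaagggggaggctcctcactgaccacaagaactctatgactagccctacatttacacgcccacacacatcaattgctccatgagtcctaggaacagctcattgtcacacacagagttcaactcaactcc

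Cxcr2 held TTCCTC starting at -81 and at 7 from its start, Ccr1 held GAGGAA at -129, and the runs of Cx3cr1 and Ccr2 held neither. Of the 8 receptors with a promoter used here, 4 carried this motif in any of their promoters (Ccr1, Ccr6, Cxcr2 and Cxcr3). It was in 28.3% of the 32851 mouse promoters of this length. The 8 receptors had 9 promoters, so the count is per gene and the share per promoter. The STAT motif TTCNNNGAA was found in 1 receptor (Ccr6, 8.3% of all promoters), and the AP-1 motif TGANTCA (7.81% of all promoters) was in none of them; both strands were searched. A promoter for Ccr7 was not used here. These matches describe letters in a window, and no binding was measured.

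After bleomycin, 7 of the 9 receptors rose in WT skin (adjusted p under 0.05 by edgeR's quasi-likelihood test with Benjamini-Hochberg adjustment over 18311 genes): Cxcr2, Cx3cr1, Ccr2, Ccr1, Ccr7, Cxcr6 and Cxcr4. The same call was made for 19.8% of all genes tested. Fold changes ran from 1.84-fold for Cxcr4 to 14.4-fold for Cxcr2, and the median of the 9 log2 fold changes was 2.46 against 0.0182 over all genes tested. Ccr6 and Cxcr3 were higher in every WT BLM than in every WT PBS mouse without passing the test (adjusted p of 0.0578 and 0.0605). For all 9 receptors the WT groups did not overlap, with WT BLM the higher, which held for 28.3% of all genes tested. In bulk skin, more cells of a type and more RNA per cell cannot be told apart. Here the 8 pan-leukocyte genes (among them Ptprc and Itgb2) all rose too, with a median log2 fold change of 2.29. So did 5 of 6 skeletal muscle genes (median 2.37, summed CPM of 4550 to 5040 in WT PBS and 15600 to 32100 in WT BLM mice). The same held for 5 of 6 endothelial genes (median 1.16) and 4 of 6 fibroblast genes (median 1.71). Of 25 growing-hair genes, 15 fell (median -7.28 over the 25). With the level of the hair genes as a covariate none of the 9 receptors passed, as given below. The part of these changes in tissue content in the receptor values was not tested.

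**Figure D2:**
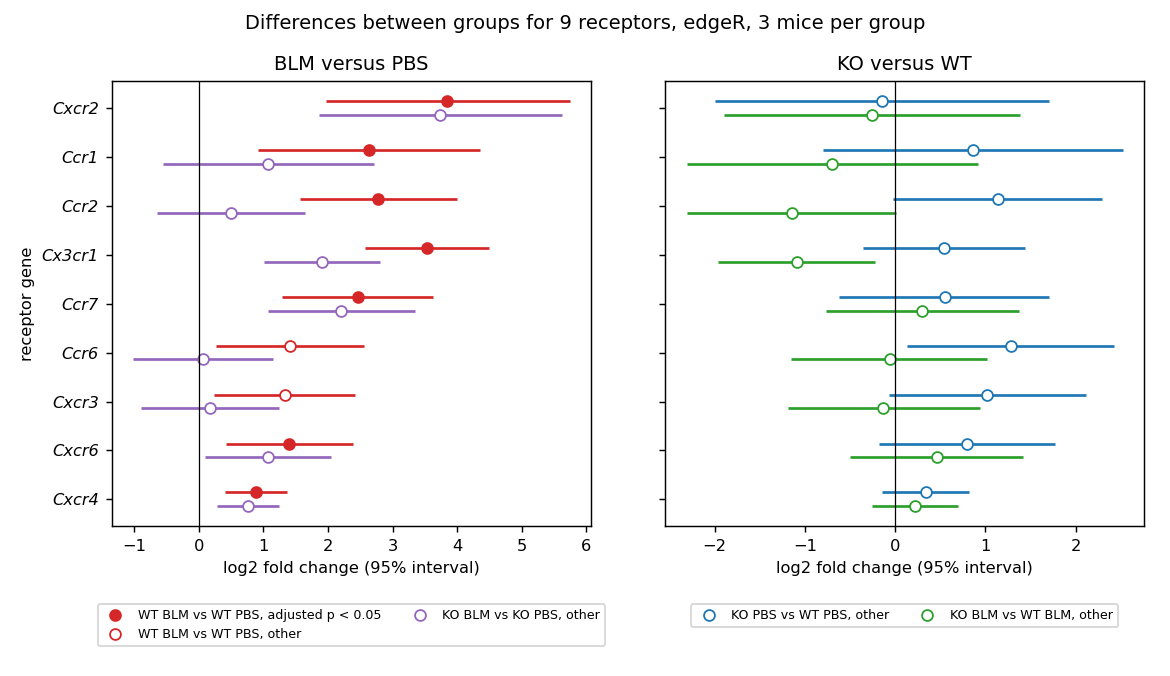
Log2 fold change with its 95% interval (horizontal axis) for each receptor (vertical axis), bleomycin against PBS within each genotype on the left and KO against WT within each treatment on the right; filled points passed the test. Only WT BLM against WT PBS has filled points, 7 of 9, and the KO BLM against KO PBS point lies to the left of the WT one for each receptor.

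The neutrophil receptor Cxcr2 was at 0.676, 0.888 and 0.484 CPM in WT PBS mice and at 8.42, 3.55 and 17.6 CPM in WT BLM mice. Every WT BLM mouse was above every WT PBS mouse, but the WT BLM mice also differed widely among themselves. The log2 fold change was 3.85 (SE 0.85, 95% interval 1.97 to 5.74, edgeR adjusted p = 0.0109). Of 11 neutrophil genes, 6 had enough counts to be tested, of which 4 rose and 1 (Camp) fell, and their summed level was 10.1 to 14.8 CPM in WT PBS and 64.6 to 444 CPM in WT BLM mice. S100a9, a calcium-binding protein of neutrophils and of stressed keratinocytes, rose (log2 fold change 6.14), as did Csf3r, the receptor for G-CSF (2.54), whereas Ly6g, which defines mouse neutrophils, had at most 3 counts in any mouse. The part of neutrophil number in the rise of Cxcr2 was not tested.

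Ccr1, a receptor of monocytes, macrophages and neutrophils for CCL3, CCL5 and CCL9, was at 0.642, 1.02 and 3.69 CPM in WT PBS and at 11, 9.0 and 13.8 CPM in WT BLM mice. The groups did not overlap, although mouse 161 was well above the other WT PBS mice. Its log2 fold change was 2.64 (SE 0.778, interval 0.92 to 4.36, edgeR adjusted p = 0.0285). That call was lost without WT PBS mouse 159 or 160 (adjusted p of 0.0887 and 0.096) and without WT BLM mouse 145 or 147 (0.0547 and 0.0703).

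The monocyte receptor Ccr2 was at 12.5, 13.9 and 26.7 CPM in WT PBS mice and at 73.5, 165 and 126 CPM in WT BLM mice, and again the lowest treated mouse was above the highest control. It rose 6.88-fold (log2 fold change 2.78, SE 0.55, interval 1.57 to 4.0, edgeR adjusted p = 0.00778). Cx3cr1, the fractalkine receptor of monocytes and macrophages, was at 2.91, 1.22 and 1.86 CPM in WT PBS and at 22.7, 21.3 and 25.8 CPM in WT BLM mice. The WT BLM mice were close together here, and the separation from the controls was the clearest of the 9 receptors by its p (log2 fold change 3.54, SE 0.435, interval 2.58 to 4.5, edgeR adjusted p = 0.00304). Macrophage markers rose alongside, 10 of 13 passing the test with a median log2 fold change of 2.09 over the 13. The monocyte genes Ly6c2 (5.05) and Chil3 (4.43) rose as well. The remaining gene of the monocyte list, Plac8, did not pass (0.896, edgeR adjusted p = 0.39).

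Ccr7, which takes dendritic cells and T cells to lymph nodes, was at 0.778, 0.691 and 0.28 CPM in WT PBS and at 2.19, 3.2 and 4.2 CPM in WT BLM mice. All treated mice were above all controls, and the log2 fold change was 2.46 (SE 0.528, interval 1.29 to 3.63, edgeR adjusted p = 0.01). Cxcr6, a receptor of resident T cells for CXCL16, was at 2.81, 2.99 and 2.24 CPM against 6.5, 5.18 and 9.58 CPM. It rose by 1.4 on the log2 scale (SE 0.444, interval 0.42 to 2.39, edgeR adjusted p = 0.0357), a call lost without any WT PBS mouse and without WT BLM mouse 145 or 147, with adjusted p of 0.0634 to 0.113.

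Ccr6, the receptor for CCL20 on IL-17–producing T cells, was the least abundant receptor, at 0.372, 0.428 and 0.28 CPM in WT PBS mice (11 to 13 counts) and at 0.705, 1.04 and 1.12 CPM in WT BLM mice (18 to 34 counts). Cxcr3, the receptor of Th1 and cytotoxic T cells for interferon-induced chemokines, was at 1.08, 1.12 and 1.25 CPM against 1.72, 3.39 and 3.54 CPM. Neither pair of groups overlapped, yet neither difference passed the test, with log2 fold changes of 1.41 (SE 0.52, interval 0.26 to 2.56) for Ccr6 and 1.33 (SE 0.496, interval 0.23 to 2.42) for Cxcr3. Both were called by DESeq2 (adjusted p of 0.043 for Ccr6 and 0.0332 for Cxcr3), which called 9 of 9 receptors and 18.5% of all genes higher. Both were also called with only the WT groups in the model, without mouse 136 (24.1% of genes called higher) and without mice 136 and 141 (25.6%). Of 11 T cell genes, 8 rose, with a median log2 fold change of 1.38 over the 11.

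Cxcr4, the CXCL12 receptor, differed least in size and was among the steadiest between mice, at 8.12, 11 and 10.1 CPM in WT PBS and at 15.5, 19.3 and 19.2 CPM in WT BLM mice. The groups did not overlap, and the log2 fold change was 0.88 (SE 0.22, interval 0.4 to 1.37, edgeR adjusted p = 0.0162). Without WT PBS mouse 159 the adjusted p was 0.0624. Cxcr2, Cx3cr1, Ccr2 and Ccr7 passed the test with each of the 12 mice left out in turn. With the hair gene level as a covariate, none of the 9 receptors passed the test in WT mice (4 had an unadjusted p under 0.05), and only 15 genes in all did (0.0546% of genes tested were called higher). In WT mice the hair level and the treatment went together in all 6 animals.

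In KO mice, 0 of the 9 receptors passed the test after bleomycin with all mice in (edgeR), where 0.306% of all genes did. At an unadjusted p under 0.05 by the same test there were 5 receptors (Cxcr2, Cx3cr1, Ccr7, Cxcr4 and Cxcr6), all of them higher, against 11.6% of all genes. DESeq2 called 4 receptors as higher (Ccr7, Cxcr2, Cxcr4 and Cx3cr1), against 3.49% of genes called higher. These were also the 4 receptors whose KO BLM mice all lay above all KO PBS mice, which held for 10.8% of genes. The median log2 fold change of the 9 receptors was 1.07, and that of the 8 pan-leukocyte genes, none of which passed the test (1 at an unadjusted p under 0.05), was 0.612. Other leukocyte lists varied. At an unadjusted p under 0.05, 5 of 6 neutrophil and 7 of 11 T cell genes were higher. Of 13 macrophage genes, 2 were higher and 2 lower, and of 5 NK cell genes 0 were higher. The monocyte gene Ly6c2 passed the test (log2 fold change 3.45, edgeR adjusted p = 0.0312), but no gene did with only the KO groups in the model.

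Cxcr2 was at 1.1, 0.343 and 0.417 CPM in KO PBS mice and at 1.5, 10.9 and 12.4 CPM in KO BLM mice, with mouse 141 the low KO BLM value and mouse 136 the high KO PBS value. The log2 fold change of 3.74 (SE 0.85, interval 1.86 to 5.62, edgeR adjusted p = 0.0897) was close in size to that in WT mice. Summed over 11 neutrophil genes, mouse 141 had 19.5 CPM, and the KO BLM group reached 287 CPM. S100a8 and S100a9 weighed most in that sum, with 170 and 89 counts in mouse 141. Mice 143 and 144 had 2855 and 2919 counts of S100a8 and 4652 and 4734 of S100a9. Csf3r was closer, at 332 counts in mouse 141 against 412 and 392. Summed keratinocyte genes were also lowest in mouse 141 (12200 CPM against 31100 and 43900). The part of either cell type in Cxcr2 was not tested. Ccr1 was at 0.765, 6.2 and 2.86 CPM in KO PBS and at 4.38, 5.64 and 10.8 CPM in KO BLM mice. Here the groups overlapped, through KO PBS mouse 137, and the log2 fold change was 1.08 (SE 0.74, interval -0.56 to 2.72, edgeR adjusted p = 0.425).

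Ccr2 was at 12.1, 59.5 and 45.1 CPM in KO PBS and at 61.3, 61.8 and 42.1 CPM in KO BLM mice. KO PBS mice 137 and 139 were within the range of the KO BLM mice, and mouse 136 alone was at the level of WT PBS mice, so the log2 fold change was 0.5 (SE 0.515, interval -0.64 to 1.64, edgeR adjusted p = 0.601). Cx3cr1 differed from Ccr2 in this. It was at 1.26, 3.71 and 3.72 CPM in KO PBS and at 8.85, 10.4 and 13.5 CPM in KO BLM mice, without overlap, with a log2 fold change of 1.91 (SE 0.408, interval 1.01 to 2.81, edgeR adjusted p = 0.078).

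Ccr7 was at 0.632, 0.914 and 0.983 CPM in KO PBS and at 1.74, 6.51 and 3.53 CPM in KO BLM mice, where mouse 141 was again the lowest of its group but still above every KO PBS mouse (log2 fold change 2.21, SE 0.514, edgeR adjusted p = 0.0957). Cxcr4 was at 14.1, 8.66 and 14.3 CPM against 17.1, 22.7 and 23.0 CPM (log2 fold change 0.76, SE 0.219, edgeR adjusted p = 0.137), also without overlap. Cxcr6 was at 2.49, 4.09 and 7.36 CPM against 5.63, 14.9 and 8.77 CPM, and KO PBS mouse 139 was above KO BLM mouse 141 (log2 fold change 1.07, SE 0.437, edgeR adjusted p = 0.213).

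Ccr6 was at 0.399, 0.514 and 1.7 CPM in KO PBS and at 0.888, 1.12 and 0.742 CPM in KO BLM mice, and the highest of these 6 values was that of KO PBS mouse 139. Cxcr3 was at 0.798, 3.31 and 2.89 CPM against 1.9, 3.78 and 2.26 CPM. For both receptors the groups overlapped and the log2 fold change was near 0, at 0.07 (interval -1.01 to 1.15) for Ccr6 and 0.18 (interval -0.89 to 1.25) for Cxcr3.

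These counts in KO mice turned on mice 136 and 141. Leaving out mouse 136 gave 4 receptors past the test (Ccr7, Cxcr2, Cxcr4 and Cx3cr1; 9.25% of genes were called higher), leaving out mouse 141 gave 3 (Ccr7, Cxcr2 and Cx3cr1; 3.34% of genes), and leaving out both gave the same 4 as without mouse 136 (13.5% of genes). Without both mice the log2 fold changes were 4.92 for Cxcr2, 2.4 for Ccr7, 1.68 for Cx3cr1 and 0.99 for Cxcr4 (edgeR adjusted p of 0.00748, 0.0158, 0.0128 and 0.025), and that of Ccr2 was -0.01 (adjusted p = 0.988). With the hair gene level as a covariate, 4 receptors passed as well (Ccr7, Cxcr2, Cxcr6 and Cx3cr1; 6.98% of genes were called higher), and without a filter on low counts 2 did (Cxcr2 and Cx3cr1; 0.383% of genes).

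**Figure D3:**
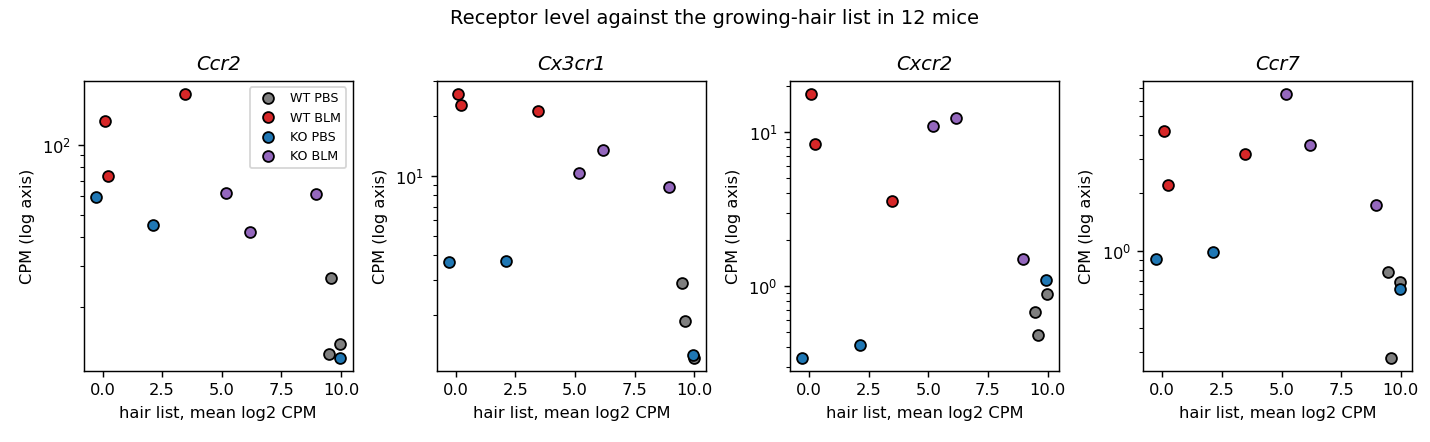
CPM of Ccr2, Cx3cr1, Cxcr2 and Ccr7 (vertical log axis) against the mean log2 CPM of 25 growing-hair genes (horizontal axis) in each of the 12 mice, coloured by group. WT PBS mice sit at high hair and low receptor levels, WT BLM mice at low hair and high receptor levels, KO PBS mice 137 and 139 at low hair with low Cxcr2, Cx3cr1 and Ccr7 and with Ccr2 of 59.5 and 45.1 CPM.

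Between genotypes without bleomycin (KO PBS against WT PBS), 0 of the 9 receptors passed the test, as against 0.0655% of all genes by edgeR. Ccr6 alone had an unadjusted p under 0.05 (edgeR adjusted p = 0.227, log2 fold change 1.28), as did 12.6% of genes in the same direction, and DESeq2 called none, against 3.83% of genes. The estimate was above 0 for 8 of the 9, led by Ccr6, Ccr2 (1.14, interval -0.02 to 2.29) and Cxcr3 (1.02, interval -0.07 to 2.11), with Cxcr2 at -0.15. Over all genes tested, 9392 of 18311 estimates were above 0, with a median of 0.0171. With the hair gene level as a covariate Ccr2 was at 0.08, Ccr6 at 0.74, and Ccr1 (-1.07), Ccr7 (-0.07), Cxcr3 (-0.19), Cxcr6 (-0.12) and Cx3cr1 (-0.43) were below 0. These values also turned on mouse 136. Without it 4 receptors were called higher in KO PBS mice (Ccr2, Ccr6, Cxcr3 and Cx3cr1; 17.8% of genes were), and without mice 136 and 141 there were 5, Ccr2 at 1.56, Ccr6 at 1.62, Cxcr3 at 1.43, Cxcr6 at 1.09 and Cx3cr1 at 0.90 on the log2 scale (edgeR adjusted p of 0.0109 to 0.0391), where 19.6% of genes were called higher. KO PBS mice 137 and 139 also had more pan-leukocyte RNA (mean log2 CPM of 6.3 and 5.84) than mouse 136 (4.19) or the WT PBS mice (4.31 to 4.98), and more skeletal muscle RNA (up to 22800 summed CPM against 4550 to 5040 in WT PBS). The part of leukocyte, muscle and hair content in these differences was not tested.

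After bleomycin, KO and WT mice (KO BLM against WT BLM) were not told apart by the test for any receptor, and 0.0928% of all genes passed it. Cx3cr1 was lower in all 3 KO BLM mice (8.85 to 13.5 CPM) than in all 3 WT BLM mice (21.3 to 25.8 CPM), with a log2 fold change of -1.09 (interval -1.96 to -0.22, edgeR adjusted p = 0.263). Ccr2 was lower as well without overlap, 42.1 to 61.8 CPM against 73.5 to 165 CPM (log2 fold change -1.14, interval -2.3 to 0.01, edgeR adjusted p = 0.302). Such a gap, with KO below WT, was seen for 12.9% of all genes. For the other receptors the groups overlapped, with intervals reaching from -0.26 to 0.7 for Cxcr4, the narrowest, and from -1.89 to 1.38 for Cxcr2. Cx3cr1 was the 1 receptor with an unadjusted p under 0.05, as were 8.62% of genes with KO below WT, and DESeq2 called none, against 3.34% of genes. Without KO PBS mouse 136, which is in neither of these groups but adds to the estimate of spread, edgeR called Cx3cr1 (adjusted p = 0.0415; 6.89% of genes were called).

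The response to bleomycin was then compared between genotypes, as the KO log2 fold change minus the WT one. It was below 0 for all 9 receptors in the model with all mice, from -2.28 for Ccr2 to -0.11 for Cxcr2, with a median of -1.15. Over all genes tested the median was -0.0542, and 8633 of the 18311 were above 0. With the hair gene level as a covariate the difference was -0.48 for Ccr2 and above 0 for Cx3cr1 (0.13), Ccr1 (1.78), Ccr7 (0.85), Cxcr3 (0.93) and Cxcr6 (1.36). No gene of the 18311 passed this test in edgeR (0.0% called), so no receptor did. Ccr2 (-2.28, SE 0.737, interval -3.91 to -0.65, edgeR adjusted p = 0.0907) and Cx3cr1 (-1.63, SE 0.565, interval -2.89 to -0.38, adjusted p = 0.101) had an unadjusted p under 0.05, as did 31.1% of genes. DESeq2 called both, with adjusted p of 0.0205 and 0.0325, and called 18.5% of all genes in either direction. Without mice 136 and 141 edgeR called both (-2.79 and -1.86, adjusted p of 0.00583 and 0.00846) along with 38.6% of all genes, so 2 of 9 receptors is not above that background. Without mouse 136 alone Cxcr3 was called too (-1.55, adjusted p = 0.0304; 39.9% of genes). For Cxcr2, Ccr7, Cxcr4 and Cxcr6 the sign of the difference depended on which mouse was left out, and their intervals with all mice were -2.6 to 2.38, -1.82 to 1.32, -0.8 to 0.56 and -1.69 to 1.03. The pan-leukocyte list had a median difference of -1.55 and the macrophage list of -1.56, and what part they have in the values of Ccr2 and Cx3cr1 was not tested.

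The chemokines that bind these receptors were described from a list of 22, of which 21 were tested. In WT mice 14 rose and none fell, where 19.8% of all genes rose and 14.1% fell. The median log2 fold change over the 21 was 2.52. In KO mice 1 passed the test, Ccl3, and the median was 1.69. At an unadjusted p under 0.05 there were 15 higher and 1 lower (Cxcl12), where 11.6% of all genes were higher and 8.45% lower. Of the ligands of Ccr2, Ccl2 was at 1.81 to 4.46 CPM in WT PBS and 14.5 to 28.8 CPM in WT BLM mice (log2 fold change 2.84), and Ccl7 (3.14) and Ccl12 (3.48) rose likewise. In KO mice the same ligands had log2 fold changes of 1.94, 1.65 and 1.83 that did not pass (edgeR adjusted p of 0.106 to 0.192). Ccr2 itself had a log2 fold change of 0.5 in KO mice (interval -0.64 to 1.64). The intervals of its ligands overlapped that of Ccr2, at 0.88 to 3.0 for Ccl2, 0.58 to 2.71 for Ccl7 and 0.28 to 3.39 for Ccl12. A difference between receptor and ligands was not tested.

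Of the ligands of Ccr1, Ccl3 had 1 to 2 counts per WT PBS mouse and 40 to 100 per WT BLM mouse, a ratio of summed counts per total of 43.7 (exact 95% interval 18.4 to 136, counting error only). In KO mice it had 1 to 7 counts after PBS and 43 to 187 after bleomycin, with a log2 fold change of 4.61 (SE 0.71, edgeR adjusted p = 0.0387). No gene at all was called in KO BLM against KO PBS with only those groups in the model, or without any 1 of mice 139, 143, 144, 159 and 161, so that call was lost there. Ccl5 (3.86) and Ccl9 (2.25) rose in WT mice, whereas Ccl6, at 12.4 to 95.1 CPM in WT PBS mice, did not pass the test (1.88, adjusted p = 0.102 by edgeR). In KO mice Ccl6 and Ccl9 had estimates of -0.03 and 0.33, with 16.0 to 233 CPM of Ccl6 among KO PBS mice alone.

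Of the ligands of Cxcr2, Cxcl1 rose in WT mice (2.97, from 3 to 10 counts per WT PBS mouse to 22 to 82 per WT BLM mouse). Cxcl2, Cxcl3 and Cxcl5 passed the test as well, from very few counts. The 3 WT PBS libraries held 4 counts of Cxcl2 and 1 of Cxcl5 in all, against 114 and 178 in WT BLM mice, ratios of 31.6 (12 to 118) and 197 (35.0 to 7840) by counting error alone. The same ratio for Cxcl5 in KO mice, from 3 counts after PBS, was 85.8 (29.0 to 419). The fitted log2 fold changes of Cxcl1 and Cxcl2 in KO mice were 3.59 and 6.42, with adjusted p of 0.0724 and 0.103 by edgeR, and mouse 141 was the lowest KO BLM mouse for Cxcl1 at 0.429 CPM against 2.45 and 2.72. Ppbp did not pass in either genotype.

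Among the T cell chemokines, Cxcl10 (2.45) and Cxcl11 (1.67) of the Cxcr3 ligands rose in WT mice and Cxcl9 (0.89, edgeR adjusted p = 0.295) did not pass. Cxcl11 had only 2 to 5 counts per WT PBS mouse and 9 to 13 per WT BLM mouse. GENCODE M21 types Cxcl11 as a polymorphic pseudogene, so a working ligand cannot be read from its counts. Cxcl16, the ligand of Cxcr6, rose by 1.83. Ccl4 (3.53) rose too. In KO mice these 5 had estimates from 0.94 for Cxcl9 to 3.66 for Ccl4, none past the test. The ligands of Ccr6, Ccr7, Cx3cr1 and Cxcr4 did not pass in WT mice. Ccl20 had a log2 fold change of 0.99, Ccl19 of -0.84 and Cx3cl1 of 0.06, and Ccl21a, which has near-identical copies in the mouse genome, had no count in any mouse.

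Cxcl12, a chemokine of fibroblasts and other stromal cells, was at 204 CPM or more in WT PBS mice, 78.5 to 252 CPM in WT BLM, 184 to 329 in KO PBS and 89.7 to 144 in KO BLM mice. In KO mice all bleomycin values lay below all PBS values (log2 fold change -1.34, SE 0.38, edgeR adjusted p = 0.136), and in WT mice the groups overlapped (-0.35). Cx3cl1 was at 25.3 to 27.2 CPM in WT PBS and 24.2 to 30.9 CPM in WT BLM mice, which overlapped. In KO mice it was at 16.7 to 21.9 CPM after PBS and 24.4 to 27.1 CPM after bleomycin, without overlap, and did not pass the test (log2 fold change 0.35, interval 0.06 to 0.65, edgeR adjusted p = 0.19).

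**Figure D4:**
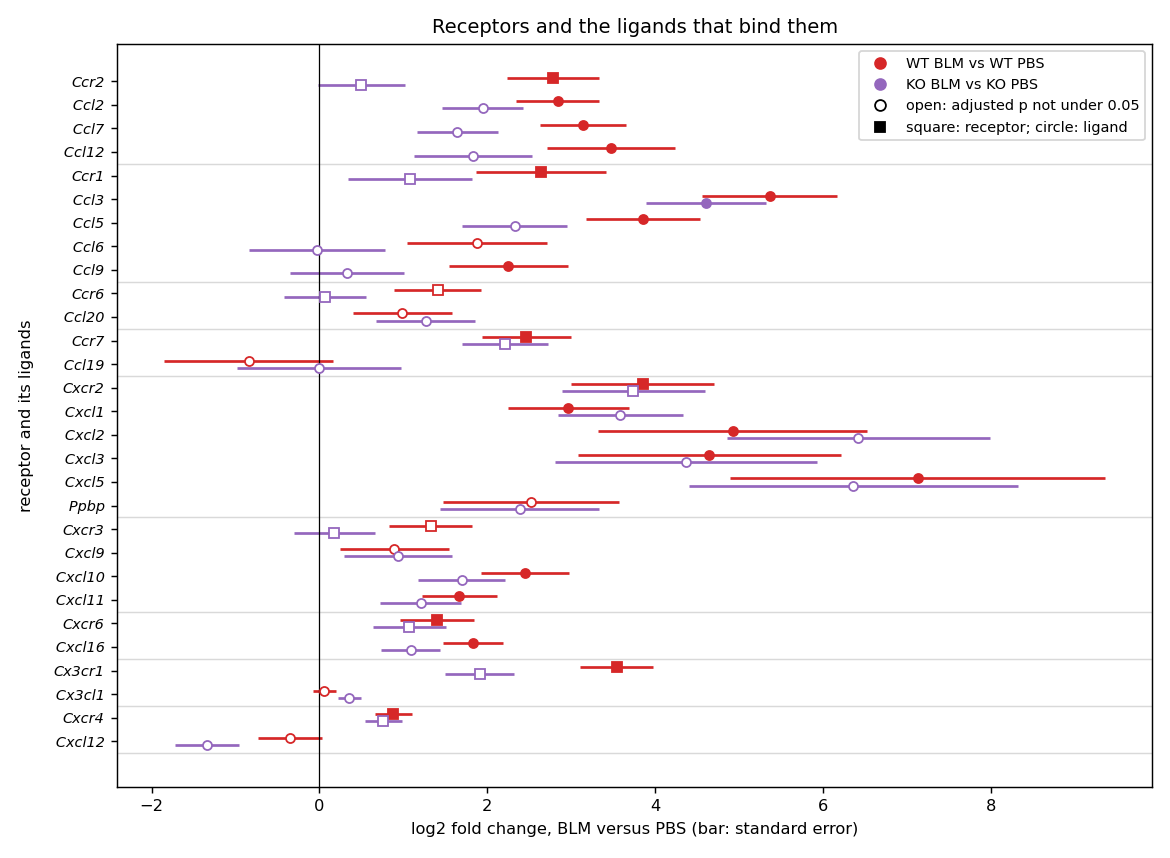
Log2 fold change, bleomycin against PBS, with its standard error (horizontal axis), for each receptor (squares) followed by ligands that bind it (circles), WT mice in red and KO mice in purple; filled symbols passed the test. In KO mice Ccl3 is the 1 filled symbol, and Cx3cl1 and Cxcl12 are open in both genotypes, with Cx3cl1 at 0.06 in WT and 0.35 in KO mice and Cxcl12 to the left of 0.

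Of a list of 9 other chemokine receptor genes, 7 were tested, and 1 rose in WT mice, Ccrl2, which presents chemerin (log2 fold change 1.69, SE 0.31, edgeR adjusted p = 0.00638). All 7 estimates were above 0, as were those of 9334 of the 18311 genes tested. By the same test 19.8% of all genes rose. In KO mice none of the 7 passed (0 at an unadjusted p under 0.05 too). Ccr4, on skin-homing T cells, was at 5.3 to 6.55 CPM in WT PBS and 3.91 to 16.3 CPM in WT BLM mice, with a log2 fold change of 0.77 that did not pass. Cxcr1 and Cxcr5 had too few counts to be tested, at most 4 and 11 per mouse. The 4 atypical receptors Ackr1, Ackr2, Ackr3 and Ackr4, which take up chemokines without G protein signalling, did not pass in either genotype. At an unadjusted p under 0.05 there were 0 of 4 in WT mice, against 47.4% of all genes, and 2 of 4 in KO mice, both lower, against 8.45% of all genes. Their estimates ran from -0.06 to 0.64 in WT mice and from -1.03 to -0.39 in KO mice.

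Of all genes tested, 19.8% rose and 14.1% fell in WT mice, with a median log2 fold change of 0.0182. Of 29 genes that act downstream of chemokine receptors, 23 rose and 1 fell, with a median of 1.44. Those with the smallest adjusted p were the Src family kinase Fgr (3.4), Rgs1, which shortens signalling by Gαi (2.85), Pik3r5, a subunit of PI3Kγ (2.51), and Fermt3, or kindlin-3, an activator of leukocyte integrins (1.44). Grk6, a receptor kinase, fell by 0.345 (edgeR adjusted p = 0.0383). Many of the 29 are made by most leukocytes, and Fermt3 is also among the pan-leukocyte genes. In KO mice the median was 0.378, and Rgs16, a further regulator of G protein signalling, passed (1.86, edgeR adjusted p = 0.0454). That call was lost under the same alternatives as that of Ccl3. Its estimate was -1.61 in KO PBS against WT PBS mice (edgeR adjusted p = 0.148). In KO BLM against WT BLM mice the estimate of Rgs16 was -0.63 (edgeR adjusted p = 0.307).

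For each receptor the tested genes with the most similar profile over the 12 mice were found from the root mean square difference of log2 CPM after centring, among 13973 genes (13974 for Ccr6, whose own mean level is below the minimum). They describe these mice only. Closest to Ccr2 were Themis2 (0.216), Clec4a3 (0.226) and BC147527 (0.23). Closest to Ccr1 were the macrophage scavenger receptor Msr1 (0.29), the Fc receptor Fcgr1 (0.338) and Tmem37 (0.343). Those of Cx3cr1 were Bcat1 (0.238), Rrad (0.321) and H19 (0.323), none of them on the macrophage list used here. Cxcr6 was closest to the T cell genes Lat (0.241), Itgb7 (0.248) and Skap1 (0.252). Ccr7 was closest to Scimp (0.355), the T cell surface protein Cd6 (0.364) and Gpr162 (0.373). Cxcr2 was closest to Slpi (0.421), Tmprss11g (0.542) and Lce1g (0.738), of which Lce1g is a cornified envelope gene of the epidermis. Cxcr3 was closest to Ly6a (0.165), Tnfsf12 (0.216) and Rgs10 (0.226), and Cxcr4 to Fndc10 (0.198), Hist1h1c (0.2) and Cdkn2b (0.22). Ccr6 was closest to Adora2a (0.256), Rftn1 (0.306) and Gpr4 (0.315). With the 4 groups shared by all genes, near profiles were common, and no test was made of them.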

How the data were processed

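Skin RNA of 12 mice was sequenced by the authors from stranded mRNA libraries. They deposited whole-number read counts per gene without normalization, in 1 table of 55453 genes. GRCm38.p6 is the genome build in the submitters' processing notes, and the aligner and counter are not given in the sources used here. Columns were matched to mice by number. Counts were normalized by TMM in edgeR 4.0.16 (R 4.3.3), filtered with filterByExpr (minimum count 10, total 15), which kept 18311 of the 34689 genes with a count, all 9 receptors among them, and fitted as 4 group means with the quasi-likelihood test and Benjamini-Hochberg adjustment at a threshold of 0.05. CPM use the TMM-scaled library total and are divided by kb of GENCODE M21 exons where genes are compared, and log2 CPM use a prior count of 2. MultiQC 1.7 is named in the processing notes. The common dispersion was 0.122 (biological coefficient of variation 34.9%). In simulated data with 18010 genes, 160 of 200 genes changed 4-fold were recovered in WT BLM against WT PBS with 5 others called. The changed genes were not drawn from those with low expected counts, and no split in hair genes was simulated. The share recovered therefore does not describe Ccr6, and it may differ from that in the real libraries. The members and gene lists were chosen with earlier results of these data known. Genes are named by receptor, by list (at most 4 with the smallest adjusted p) or by profile (the closest 3). 1 further receptor gene is not reported here. DESeq2 1.42.0, other normalizations and filters, a hair covariate, 2-group models and leaving out mice were the alternatives.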

Additional observations from a re-analysis of the deposited data

How the results depend on the processing

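No paired analysis was possible because every mouse has its own number, shared with no mouse of another group. With 3 mice per group an exact permutation test of 1 gene cannot reach the threshold, and Ccr6, at 11 to 57 counts per mouse, is also limited by depth. Of 886 values of single receptors under the alternatives, 776 kept their direction and their side of the threshold, 47 kept the direction and came to pass the test, 17 kept it and no longer passed, and 46 changed sign; the causes were not tested.

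Receptors called in WT BLM against WT PBS were 0 with the hair covariate, and 9 with DESeq2, with only those groups in the model and without mice 136 and 141. In KO BLM against KO PBS there were 4 with DESeq2, 4 without mice 136 and 141, 4 with the hair covariate and 2 (Cxcr2 and Cx3cr1) without a filter on low counts. In KO PBS against WT PBS there were 5 without mice 136 and 141, and in the difference of responses 2 with DESeq2 and 2 without those mice. Leaving out 1 mouse at a time gave 4 to 9 receptors in WT, 0 to 4 in KO, 0 to 4 in KO PBS against WT PBS, 0 to 1 in KO BLM against WT BLM and 0 to 3 in the difference.

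Genes called in WT BLM against WT PBS were 15 with the hair covariate and 2615 to 8565 with 1 mouse left out. In KO BLM against KO PBS they were 56 with all mice, 1212 with DESeq2, 4164 without mice 136 and 141, 1819 with the hair covariate, 176 without a filter, 34 with upper-quartile normalization, 0 with only those groups in the model and 0 to 2632 with 1 mouse left out. In KO PBS against WT PBS they were 12, then 755 with DESeq2, 7648 without mice 136 and 141, 2 with only those groups and 6 to 6870 with 1 mouse left out. KO BLM against WT BLM gave 17, then 614 with DESeq2, 815 without mice 136 and 141, 36 with the hair covariate, 6 with only those groups and 5 to 1292 with 1 mouse left out. The difference gave 0, then 3279 with DESeq2, 7218 without mice 136 and 141, 20 without a filter and 0 to 7470 with 1 mouse left out. DESeq2 set the median of all genes in the difference at -0.107 on the log2 scale.

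Sign changes with the hair covariate were, as log2 fold changes, Cxcr3 at -0.0804 in WT; Ccr1 at -1.07, Ccr7 at -0.0652, Cxcr3 at -0.19, Cxcr6 at -0.12 and Cx3cr1 at -0.43 in KO PBS against WT PBS; Ccr1 at 0.71, Ccr6 at 0.39 and Cxcr3 at 0.73 in KO BLM against WT BLM; and Ccr1 at 1.78, Ccr7 at 0.85, Cxcr3 at 0.93, Cxcr6 at 1.36 and Cx3cr1 at 0.13 in the difference. Without mice 136 and 141 they were Ccr2 at -0.0112, Ccr6 at -0.24 and Cxcr3 at -0.036 in KO BLM against KO PBS, Cxcr2 at 0.24 and Cxcr3 at 0.0674 in KO BLM against WT BLM, and Cxcr2 at 1.07 and Cxcr4 at 0.11 in the difference.

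With 1 mouse left out, signs changed within -0.27 to 0.99 for Ccr6 and -0.23 to 0.52 for Cxcr3 in KO BLM against KO PBS, -0.83 to 0.15 for Cxcr2 in KO PBS against WT PBS, -0.23 to 0.0687 for Ccr6, -0.28 to 0.68 for Ccr7, -0.67 to 0.47 for Cxcr2 and -0.47 to 0.10 for Cxcr3 in KO BLM against WT BLM, and -0.82 to 0.10 for Ccr7, -0.53 to 0.61 for Cxcr2, -0.32 to 0.00926 for Cxcr4 and -0.77 to 0.16 for Cxcr6 in the difference. None of these was past the threshold with all mice.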
